A study of Saccharomyces cerevisiae with 10 samples.

Results

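HK12 is a diploid Saccharomyces cerevisiae strain name under which 2 purified isolates, A and B, were put on SNP microarrays. They are described here against 6 zygotes, and were chosen by name from the 10 arrays of the series. The study concerns genome instability and RNase H2, an enzyme that cleaves DNA where ribonucleotides have been built into it. Isolate DNA carried Cy5 and competed on the array with Cy3-labelled DNA of a control diploid, JSC24. All isolates are labelled as diploids that join W303-1A and YJM789, laboratory and clinical strains with many single-nucleotide differences, and were grown in rich medium (YPD). The zygotes are labelled as independent, 4 from the cross of MD893-1 and 2 from the cross of MD893-2, each with LSY3454-2. The labels give no alleles for HK12 or for the crossed parents, and none is assumed. HK12 A and B share a name and may come from 1 culture, so every p-value below measures only the spread between these isolates. HK12 and the zygotes differ in strain and in origin at once, and these cannot be told apart.

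A diploid that is heterozygous at a SNP holds 1 copy of each parental allele. Mitotic recombination can leave both homologs with the same allele, which is called loss of heterozygosity (LOH). A crossover or break-induced replication makes a tract that runs to the chromosome end (terminal), and gene conversion makes a short tract with heterozygous SNPs on both sides (interstitial). Loss of a whole homolog would take the signal of that chromosome down with it, whereas recombination replaces the lost allele by a second copy of the other.

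Each SNP was read through probes for an S and a Y allele, letters that the labels do not define. The measure d is the S probes' mean log2 ratio less the Y probes' mean, with the median of the array set to 0, so that a heterozygous SNP lies near 0, S homozygosity above and Y homozygosity below. The measure s is the mean log2 ratio of both alleles, centred on the array's heterozygous SNPs, and follows the amount of DNA where SNPs are heterozygous. In an LOH tract the lost allele lowers s although the retained allele is raised, so s does not measure the amount of DNA there. HK12 A gave d at 12655 SNPs and HK12 B at 12778, against 12324 to 13377 in the zygotes, out of 13461 SNPs with both alleles on the array. Probes without a value made up 7.47% in HK12 A and 6.32% in HK12 B, against 0.86% to 10.51% in the zygotes. The noise of d was 0.169 and 0.157 in HK12, within the 0.142 to 0.276 of the zygotes. Positions are those of the deposited probe names. Their genome build is not given in the sources used here, so no gene was placed on them.

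HK12 A had 8 LOH tracts and HK12 B had 9, each of at least 5 SNPs, whereas 5 zygotes had 0 and MD893-1 zygote 2 had 1. The mean was 8.5 ± 0.707 tracts in HK12 (SD, n = 2) and 0.167 ± 0.408 in the zygotes (SD, n = 6). The difference of 8.33 exceeded the spread within each group, and the groups did not overlap. An exact two-sided permutation test over isolates reached p = 0.0714, the lowest possible with 28 splits of 2 against 6, so no comparison of this kind can reach 0.05. With a minimum of 10 SNPs the difference was 4.5. On chromosome V from 31251 to 33770, HK12 A and B had a median d of -1.60 over 3 measured SNPs and -1.49 over 2, too few for a call, against -1.76 over 5 SNPs in MD893-1 zygote 2, whose single call this was, and -1.89 to -1.04 over 2 to 5 SNPs in the other zygotes. In that zygote the S allele was not low, at 0.10 on the log2 scale against the heterozygous SNPs of that chromosome, while the Y allele stood at 1.90. A Y call on chromosome II from 469650 to 474265, with a median d of -2.84 and -2.86 in HK12 A and B against -3.69 to -2.17 in the zygotes, was made on all 8 arrays and is not counted. An S call on chromosome XV from 370120 to 371629, with a median d of 2.33 and 1.99 in HK12 A and B against 1.92 to 2.44 in the zygotes, is not counted either, since both MD893-2 zygotes had it. It was not made in HK12 B and MD893-1 zygote 3, which had values at 4 SNPs each.

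LOH covered 9.69% of the assayed 11559 kb in HK12 A and 13.2% in HK12 B, against 0.0264% in the zygote with the chromosome V call and 0% in the other zygotes. Nearly all of it was S homozygosity, which covered 9.43% in HK12 A and 13.0% in HK12 B. Y homozygosity covered 0.256% in HK12 A and 0.234% in HK12 B. The number of tracts ran differently from their length. HK12 A had 3 S tracts and 5 Y tracts, and HK12 B had 5 S tracts and 4 Y tracts, so that S minus Y averaged -0.5, and -4 where 3 SNPs sufficed for a tract.

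The tracts of both isolates fell on 10 loci, of which 7 were called in both isolates, 1 in HK12 A alone and 2 in HK12 B alone. Of the 10 loci, 3 were called terminal, and all 3 retained S. The left-end tract of chromosome I is terminal only by its call. Its outermost SNP, at 2813, had d of -0.45 in HK12 A and no value in HK12 B. The other 7 loci were interstitial, and 5 of them retained Y. Interstitial tracts were 2.78 to 9.46 kb long in HK12 A, and 3.93 to 16.8 kb long in HK12 B. Both extremes depend on where the ends are placed. The SNPs of the 16.8 kb tract span 2.52 kb, and the 2.78 kb tract counts a last SNP with d of -0.29. Over these loci the zygotes' median d lay between -0.24 and 0.13, with no zygote near a homozygous level.

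The longest tract was on chromosome IV, where both isolates were S homozygous from 458195 to the last SNP at 1515286. It spanned 1058 kb, or 69.99% of the stretch that SNPs cover on that chromosome. It made up 94.5% of the LOH length in HK12 A and 69.1% in HK12 B. The median d was 3.20 over 856 measured SNPs in HK12 A and 3.07 over 854 in HK12 B, against 0.01 to 0.04 in the zygotes. Every zygote was thus at the heterozygous level where both HK12 isolates were not. The breakpoint was the same in both isolates to the resolution of the array: the SNP at 456380 had d of -0.09 in HK12 A and 0.13 in HK12 B, and the SNP at 458195 had 3.20 and 2.50, which places it within 1815 bp.

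**Figure D1:**
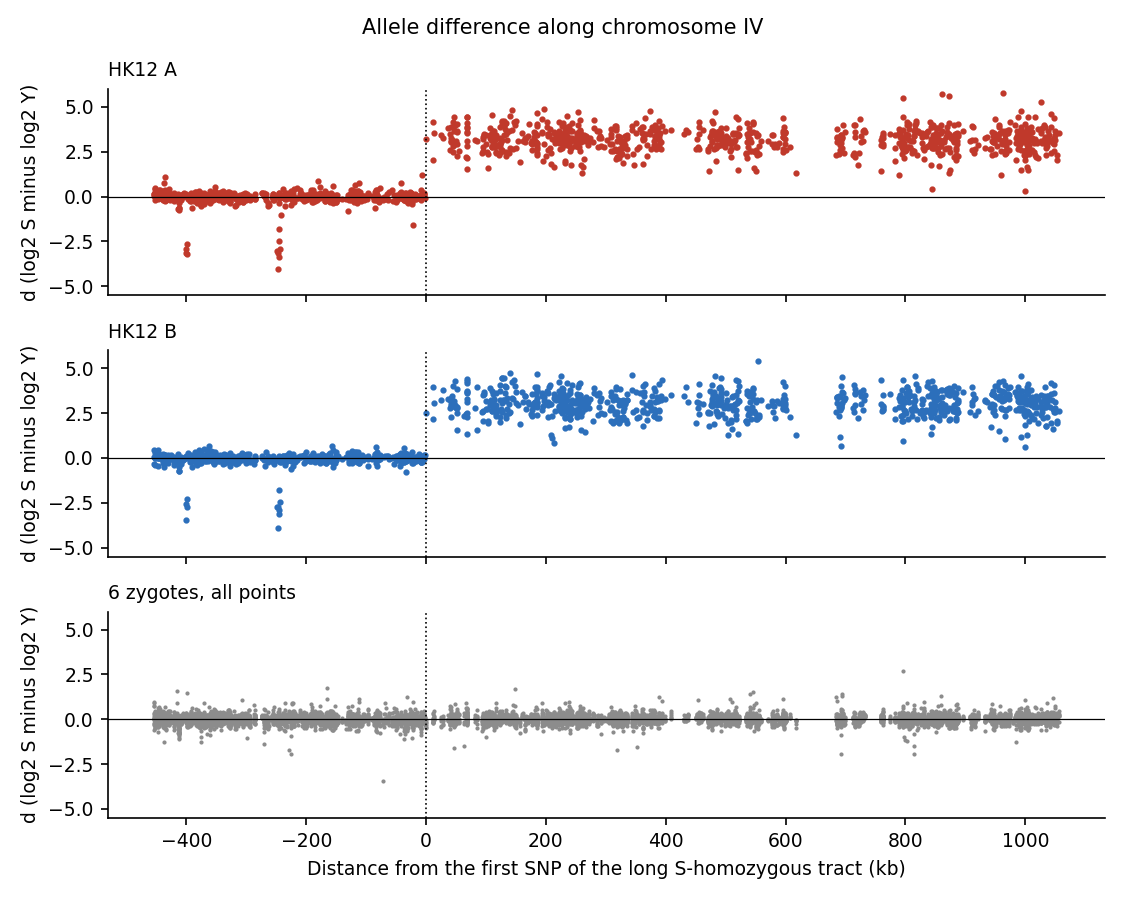
Each point is the d of 1 SNP of chromosome IV, plotted against its distance in kb from the first SNP of the long S-homozygous tract (dotted line), for HK12 A, HK12 B and all 6 zygotes. Both HK12 isolates sit near 3 to the right of the line and near 0 to the left, except for 2 small groups of low points, and the zygotes sit near 0 throughout.

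The tract looked the same from end to end. In 4 equal stretches of it the median d was 3.18 to 3.25 in HK12 A and 3.02 to 3.11 in HK12 B. A SNP-free gap of 67.1 kb between 1075942 and 1143034 lies inside the tract, and allele loss within that gap was not measured. Across 829 SNPs of the tract, d of HK12 A and d of HK12 B had a Pearson correlation of 0.69. That is a description across SNPs that share their probes, and over 10886 SNPs heterozygous in both isolates it was 0.28. Of the SNPs in the tract, 2 in each isolate had d under 0.75 in absolute value. The SNP at 1457974 was low in both, with 0.32 in HK12 A and 0.63 in HK12 B. SNPs on both of its sides were S homozygous.

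Chromosome XII separated the isolates. HK12 B was S homozygous from 665226 to the last SNP at 1058884, over 397 kb and 659 measured SNPs, with a median d of 3.07. HK12 A had a median d of -0.04 over 674 of the same SNPs, and the zygotes had -0.02 to 0.01. HK12 A thus stood with the zygotes there and apart from HK12 B. Across 648 SNPs of this stretch d of HK12 A and of HK12 B had a correlation of -0.003. The breakpoint of HK12 B lies between 657904 and 665226, an interval of 7322 bp. The ribosomal RNA gene repeats, a long array of identical units, are on chromosome XII in yeast. The largest stretch of the chromosome without SNPs ran from 447537 to 490725. Between it and the tract of HK12 B lay 147 SNPs over 174.5 kb with a median d of -0.05 in HK12 A and -0.06 in HK12 B, so the breakpoint is well to the right of that stretch.

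**Figure D2:**
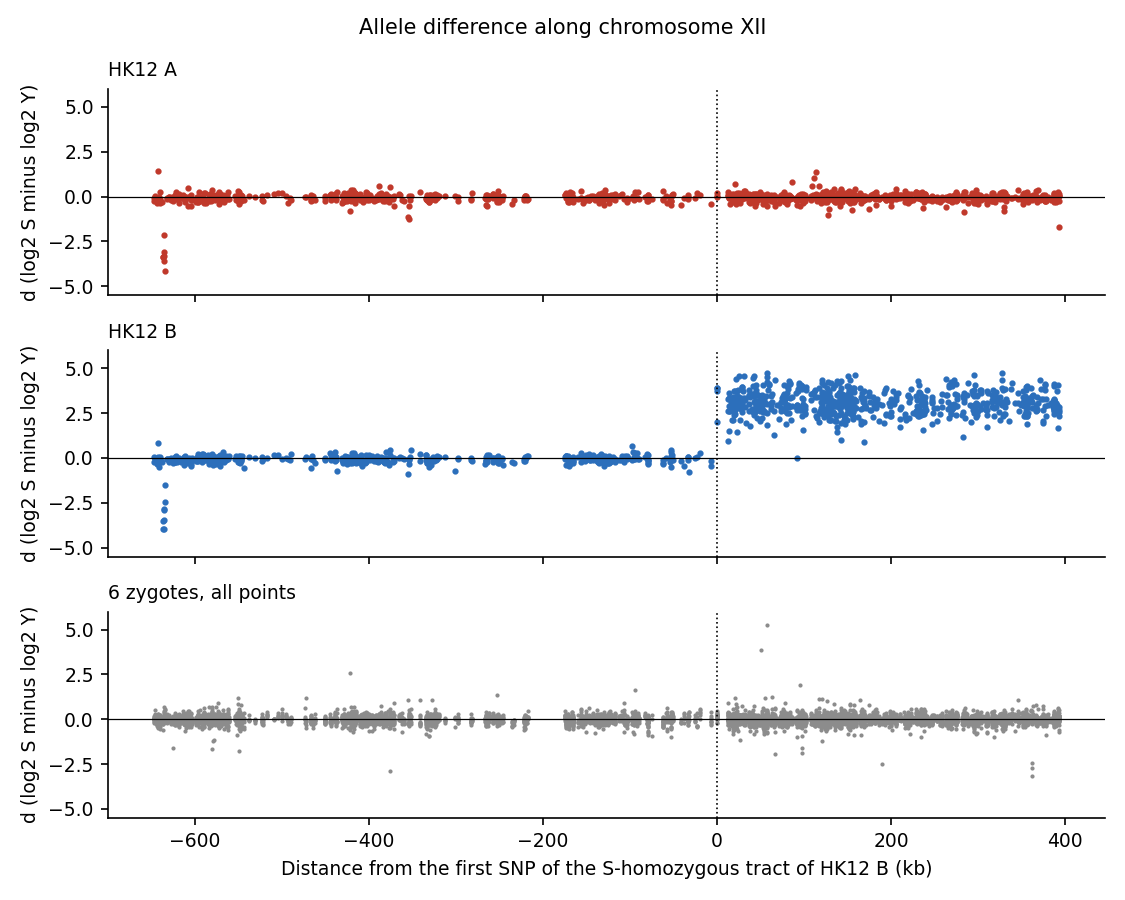
Each point is the d of 1 SNP of chromosome XII against its distance in kb from the first SNP of the long S-homozygous tract of HK12 B (dotted line), for HK12 A, HK12 B and all 6 zygotes. To the right of the line HK12 B alone sits near 3, and the short Y-homozygous tract at the far left is seen in both HK12 isolates.

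The left end of chromosome I held 3 tracts of alternating allele close together. In both isolates an S call ran from the first measured SNP, at 2813 in HK12 A and 2880 in HK12 B, to 28735 and 28705. It was called as a terminal tract of 27.1 kb for HK12 A and 27.0 kb for HK12 B. Its median d was 3.50 over 19 SNPs in HK12 A and 3.30 over 16 SNPs in HK12 B, against -0.07 to 0.00 in the zygotes. The outermost SNP at 2813 had d of -0.45 in HK12 A and no value in HK12 B, so the S level was measured from 2880 inward. The 11 SNPs that follow, over 9.76 kb, were heterozygous, with a median d of -0.21 in HK12 A and -0.18 in HK12 B.

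After them came a short Y stretch. Its SNPs at 38877, 39784 and 39908 had d of -3.60, -3.21 and -4.71 in HK12 A and of -2.73, -3.11 and -4.01 in HK12 B. The SNP at 38493 had -4.98 in HK12 A and no value in HK12 B. The tract was therefore called in HK12 A alone, where the minimum of 5 SNPs was met by counting the SNP at 40369, whose d was -0.29 in HK12 A and -0.10 in HK12 B. Both isolates carried the Y stretch, and the difference in calls came from 1 missing SNP. From 41791 to 45688 both isolates were S homozygous again over 5.09 kb, with a median d of 3.41 in HK12 A and 2.92 in HK12 B, against -0.05 to 0.12 in the zygotes. S and Y homozygosity thus lay 1.88 kb apart, with 1 heterozygous SNP between them. The rest of the chromosome, 241 SNPs over 164 kb, was heterozygous in both.

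**Figure D3:**
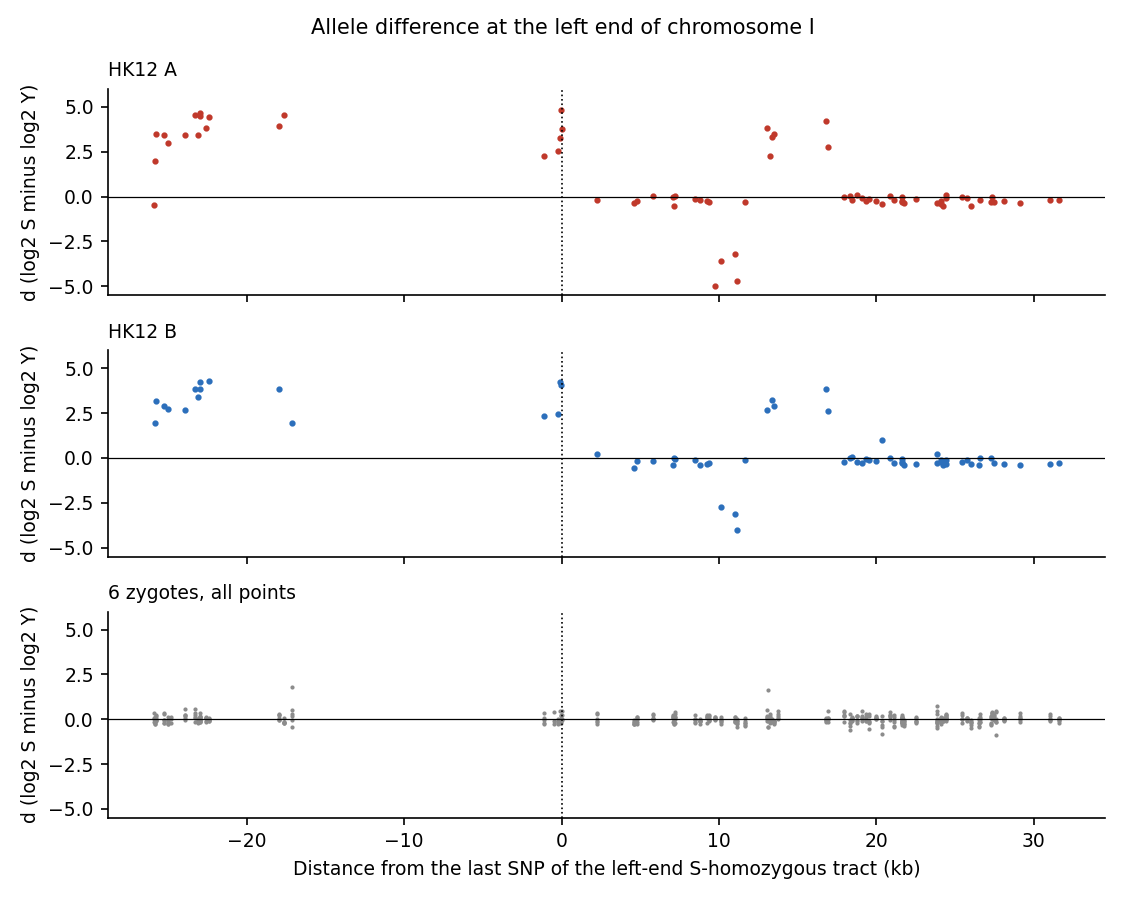
Each point is the d of 1 SNP at the left end of chromosome I against its distance in kb from the last SNP of the left-end S-homozygous tract (dotted line), for HK12 A, HK12 B and all 6 zygotes. In both HK12 isolates a high stretch, a heterozygous stretch, a low stretch and a second high stretch follow each other, while the zygotes stay near 0.

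The remaining Y tracts were present in both isolates with nearly the same ends. On chromosome IV, to the left of the long S tract, the SNPs from 208973 to 212240 were Y homozygous over 5.54 kb in both, with a median d of -3.07 in HK12 A and -2.83 in HK12 B. The right end lay within 119 bp, the narrowest interval among the 29 tract ends that have a neighbouring SNP. The widest was 27319 bp and the median 1422 bp. Ends found in both isolates are counted in each, so these are not 29 separate breakpoints. After 8 heterozygous SNPs over 2.89 kb, the single SNP at 215127 was at the Y level again, with d of -2.93 in HK12 A and -2.48 in HK12 B, against -0.04 to 0.26 in the zygotes.

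On chromosome XI the SNPs from 642427 to 650268 were Y homozygous over 9.46 kb, with a median d of -3.27 over 16 SNPs in HK12 A and -3.22 over 18 SNPs in HK12 B. On chromosome XII the Y tract began at 28812 and had a median d of -3.34 in HK12 A and -3.18 in HK12 B. Its last SNP was 30315 in HK12 A and 30918 in HK12 B, and the SNP at 30918 had no value in HK12 A, so the ends do not differ measurably. On chromosome XVI the 11 SNPs from 110046 to 117156 were Y homozygous over 8.18 kb, with a median d of -3.10 in HK12 A and -3.07 in HK12 B. All these tracts lay at the heterozygous level in every zygote.

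Besides the long tract of chromosome XII, 1 further locus was seen in HK12 B alone. On chromosome XI the 5 SNPs from 257395 to 259919 had d of 3.08, 3.46, 2.68, 3.65 and 2.33 in HK12 B. In HK12 A they had -0.08, 0.11, 0.24, -0.22 and 0.05, and the zygotes' medians were -0.12 to 0.04. All 5 SNPs were measured in both isolates, so the difference did not come from missing values. The first of them follows a SNP-free stretch of 27.3 kb, so the left end is known only to that extent, and the 16.8 kb given to the tract places it midway.

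Runs of 2 to 4 neighbouring SNPs are too short for a tract call, and were taken where d was at least 1.5 in absolute value in both HK12 isolates and under 0.75 in every measured zygote. By this rule 809 of 12456 SNPs (6.49%) were higher and 55 (0.442%) lower in HK12 over the whole genome, tracts included. Outside the 10 loci there were 4 such runs, and all 4 retained Y. A run of 4 SNPs on chromosome II from 101468 to 102421 spanned 954 bp and had a median d of -3.84 in HK12 A and -3.48 in HK12 B. A second run on chromosome II, 3 SNPs from 693225 to 693567, had -3.57 in HK12 A and -3.06 in HK12 B. A run of 3 SNPs on chromosome IV from 57794 to 59499 had -3.13 in HK12 A and -2.73 in HK12 B. Its next SNP, at 59544, was also at the Y level in HK12, with -2.64 and -2.30, but MD893-2 zygote 1 had 1.45 there, above the limit.

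The fourth run, 2 SNPs on chromosome XVI from 523431 to 523734, had a median d of -3.50 in HK12 A and -3.31 in HK12 B. Over the 4 runs the zygotes' medians lay between -0.24 and 0.22. The S allele was at -3.12 to -2.25 on the log2 scale against heterozygous SNPs in these runs, and the Y allele at 0.55 to 0.89. The runs were picked by the gap between these alleles, so the gap itself is not separate support. It divided as in the called Y tracts, with S low and Y raised. The same search in each zygote, with the other zygotes as the comparison, found 0 runs of 2 or more SNPs in any of the 6, and 0 to 33 single SNPs. In each HK12 isolate taken alone it found the same 4 runs and 13 single SNPs in HK12 A and 5 in HK12 B. Tracts and runs together made 14 places, 11 of them in both isolates by these calls, and of the 11 that were not terminal, 9 retained Y and 2 retained S. The left-end S tract of chromosome I is counted as terminal there.

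SNP by SNP, a moderated test (limma) of d over 12938 SNPs at an adjusted p under 0.05 and a difference of at least 1.5 called 899 SNPs higher (6.95%) and 61 lower (0.471%) in HK12 than in the zygotes. Of the 960 calls, 937 lay inside the 10 loci and 23 outside. The loci were called from the same d values, so calls and p-values inside them are not separate support for allele loss. The long tract of chromosome IV gave 859 calls among its 879 tested SNPs, with a median difference of 3.09 ± 0.13 (median SE) and a median limma adjusted p of 2.24e-07. All 18 tested SNPs of the Y tract of chromosome XI, all 11 of chromosome XVI and all 6 of chromosome IV were called lower. In the Y tracts of chromosomes XII and I, 7 of 8 and 4 of 5 tested SNPs were. The loci of HK12 B alone were hardly called, with 8 of 682 SNPs on chromosome XII and 0 of 5 on chromosome XI (4 at an unadjusted limma p under 0.05), where HK12 A and B lay far apart and the test's spread includes that gap. Without HK12 A the calls numbered 1512 higher and 62 lower, in a fit where HK12 is 1 array and is assumed to vary like the zygotes.

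The level of each allele was read separately in every tract. Set against heterozygous SNPs of its chromosome and array, the retained allele stood at 0.68 ± 0.08 on the log2 scale (SD over 17 tract calls, range 0.51 to 0.83) and the lost allele at -2.57 ± 0.25 (range -3.12 to -2.22). The 17 calls fall on 10 loci, 7 of them counted in both isolates, so the calls are not independent and the SDs are descriptive. In the long tract of chromosome IV the retained S allele was at 0.68 in HK12 A and 0.64 in HK12 B, which is 1.61-fold and 1.56-fold of the heterozygous level. The lost Y allele there was at 17.4% of that level in HK12 A and 18.1% in HK12 B. Within the long tract of chromosome XII the retained S allele of HK12 B was at 0.65 and the lost Y allele at -2.47.

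The retained allele was raised in all 17 tract calls, and in none did both alleles fall. A search for SNPs with both alleles under -1.5 found 0 SNPs in HK12 A, 0 in HK12 B and at most 1 in any zygote. This search can find only SNPs where both alleles are lost, and loss of 1 allele alone would not show in it. The lost allele still gave a signal in every tract, the lowest 11.5% of its chromosome's heterozygous level, in the left-end tract of chromosome I of HK12 A. That reference level was itself high on chromosome I. In HK12 A the Y allele of its heterozygous SNPs stood at 0.80 against those of the array, and at -0.16 on chromosome IV. The order of tracts on different chromosomes thus depends on the reference. Tracts of both directions had similar retained levels, of 0.65 ± 0.08 in 8 S calls and 0.72 ± 0.07 in 9 Y calls. The lost level was -2.73 ± 0.28 in the S calls and -2.44 ± 0.13 in the Y calls, and both sets include calls on chromosome I. Forward and reverse probes, read apart, each showed the allele difference in all 17, with absolute median d of 2.95 to 4.15 on forward probes and 2.14 to 4.53 on reverse probes. The tracts were called on both strands together, so this is not separate support. In the S tract from 41791 on chromosome I of HK12 B, each strand had values at only 2 SNPs.

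**Figure D4:**
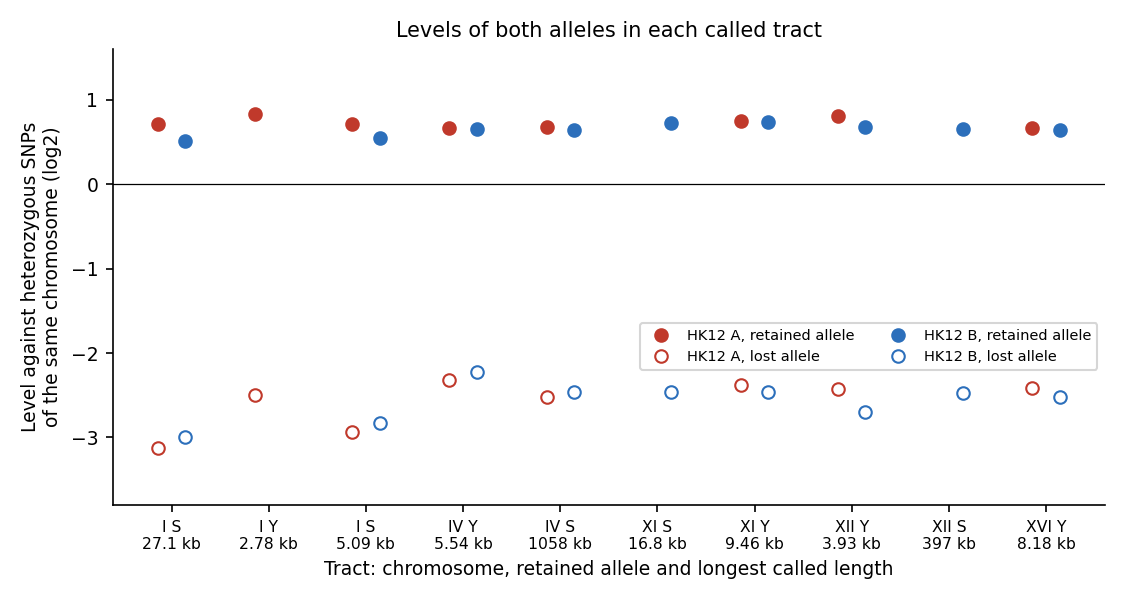
Each symbol is the median log2 level of 1 allele in 1 called tract of HK12 A or HK12 B, relative to that chromosome's heterozygous SNPs, with the tracts named below by chromosome, retained allele and longest called length. Filled symbols (retained allele) lie between 0.51 and 0.83 and open symbols (lost allele) between -3.12 and -2.22, for tracts of 2.78 kb as for the one of 1058 kb.

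The signal of both alleles together differed by chromosome in HK12. Over heterozygous SNPs, median s was highest on chromosome I, at 0.72 in HK12 A and 0.70 in HK12 B, against -0.05 to -0.02 in the zygotes, and next on chromosome VI, at 0.65 and 0.62 against -0.03 to 0.01. Chromosome III had 0.48 in HK12 A and 0.45 in HK12 B, against -0.03 to 0.01 in the zygotes, and chromosome IX had 0.29 and 0.28, against -0.04 to 0.00. The lowest was chromosome XII, at -0.19 in HK12 A and -0.21 in HK12 B, followed by IV (-0.14 and -0.15), VII (-0.07 and -0.09) and XV (-0.07 and -0.09), where no zygote was under -0.01. The isolates of HK12 differed from each other by far less than either differed from the zygotes on the chromosomes named.

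**Figure D5:**
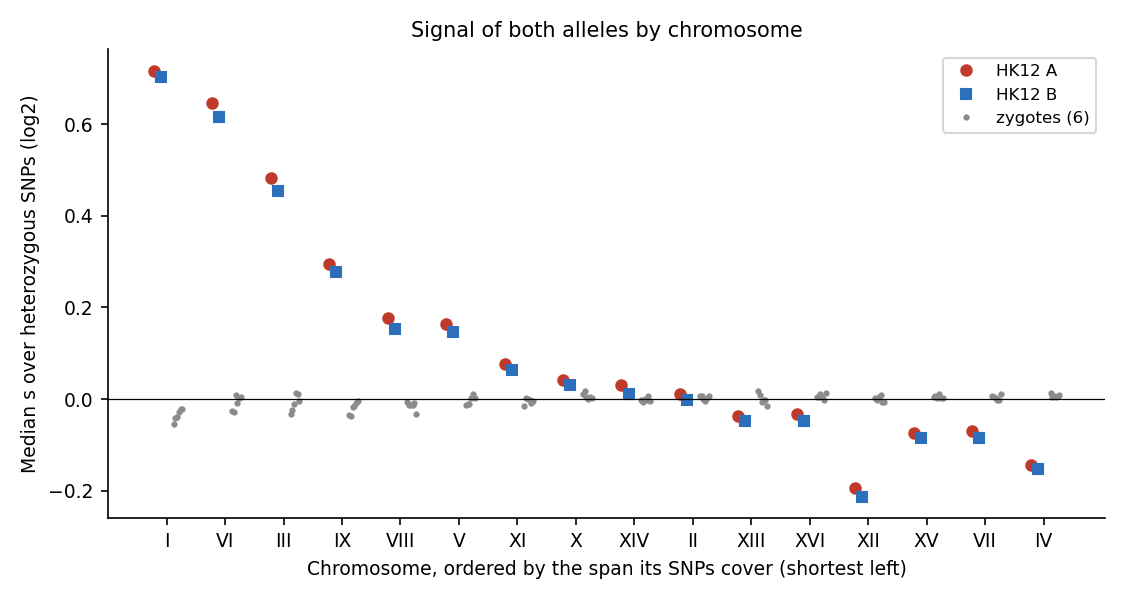
Each symbol is the median s over heterozygous SNPs of 1 chromosome on 1 array, with chromosomes ordered by the span of their SNPs from the shortest on the left. HK12 A and B lie together, from about 0.7 on chromosome I to about -0.2 on chromosome XII, and the 6 zygotes stay close to 0 on every chromosome.

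Over all SNPs, HK12 and the zygotes did not overlap on 15 of 16 chromosomes, 9 higher (56.2%) and 6 lower (37.5%) in HK12, with an exact two-sided permutation p = 0.0714 for each and 0.0762 after adjustment over the chromosomes. Chromosome II overlapped. Centred on the median of all SNPs, 10 were higher and 5 lower, with XIII overlapping. Centred on the median of the chromosome medians, 7 were higher and 8 lower, with X overlapping. With all SNPs chromosome IV fell to -0.80 and -0.78 and chromosome XII of HK12 B to -0.80, since the median then lies among SNPs with a lost allele. The value of HK12 A on chromosome XII was -0.19 either way. The range over chromosomes at heterozygous SNPs was 0.91 in HK12 A and 0.92 in HK12 B, against 0.034 to 0.072 in the zygotes.

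Median s followed the span covered by SNPs, with a Spearman correlation over 16 chromosomes of -0.98 in HK12 A and -0.98 in HK12 B, and of 0.12 to 0.81 in the zygotes. These are descriptions of single arrays. The other strain of the series, HK10, had the same order on its arrays, with -0.98 in both isolates and a median s on chromosome I of 0.68 and 0.64. The zygotes do not share it, and whether it belongs to the strains, the cultures or the arrays was not tested. Chromosome XII departed from the order of spans: it covers 1041 kb, less than VII, XV and IV, and had the lowest median s. This held on both sides of its largest gap, with -0.20 and -0.21 to the left and -0.21 and -0.24 between the gap and the tract of HK12 B, and in HK12 A with -0.19 over the stretch that is homozygous in HK12 B.

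The limma test of s called 1388 SNPs higher (10.7%) and 1990 lower (15.4%) in HK12 among 12938, and 900 higher and 1092 lower when HK12 B was left out and HK12 was 1 array, assumed to vary like the zygotes. On chromosome VI 305 of 330 SNPs were higher, on III 175 of 209, on I 228 of 274 and on IX 346 of 553. The lower calls were concentrated on IV, with 987 of 1499, and on XII, with 668 of 1198. These counts include SNPs of the long tracts, where the lost allele lowers s. In the long tract of chromosome IV median s was -0.93 in HK12 A and -0.92 in HK12 B, against heterozygous SNPs of that chromosome. Without SNPs called homozygous in an HK12 isolate, 1276 were higher and 422 lower of 11298.

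Within the heterozygous part of chromosome I the alleles were not raised alike. Against the heterozygous SNPs of the whole array, the S allele was at 0.63 and the Y allele at 0.80 in HK12 A, and at 0.64 and 0.78 in HK12 B. The median d of these SNPs, relative to heterozygous SNPs of the array, was -0.16 in HK12 A and -0.15 in HK12 B, against -0.03 to 0.00 in the zygotes. HK10 A and B had -0.13 and -0.11 there. HK12 and the zygotes did not overlap, with an exact two-sided permutation p = 0.0714 and 0.143 after adjustment over 16 chromosomes. In all, this measure did not overlap on 8 of 16 chromosomes, 4 higher (25%) and 4 lower (25%) in HK12, so the lack of overlap is not particular to chromosome I. The offset was alike on forward probes (-0.16 in both isolates) and reverse probes (-0.16 and -0.18), and in the left and right parts of the heterozygous stretch (-0.17 and -0.18 on the left, -0.17 in both isolates on the right). Elsewhere the median d at heterozygous SNPs lay between -0.04 and 0.03 in HK12, chromosome VI included, where s was nearly as high.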

How the data were processed

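Arrays compared 2 HK12 isolates with 6 zygotes. For each of 53664 probes the deposited table holds linear ratios, isolate over control. Each array's deposited ratios average 1; how spots were filtered and corrected, and the genome build, were not given in the sources used here. Columns were matched through the strain in the sample source, which reads MD891 or MD892 where titles read MD893-1 or MD893-2; grouping follows the titles. Log2 ratios were computed and each array's median set to 0. A hidden Markov model with 3 states (heterozygous at 0, homozygous at 3 and -3 with scale 0.8, Student t with 4 degrees of freedom, state change 0.0001, noise of at least 0.1) ran along each chromosome. A tract needed 5 SNPs and ended midway to the next measured SNP; tracts in all zygotes of a cross, with ends within 3 SNPs, were left out. Isolates were compared with exact permutation tests (SciPy 1.17.1) and SNPs with limma 3.58.1 in R 4.3.3, with Benjamini-Hochberg adjustment. Both procedures were tested on simulated data. Median SNP spacing of 368 bp and the number of arrays limit precision. The text names every HK12 tract, every short run of 2 to 4 SNPs and the chromosomes with the highest 4 and lowest 4 s; the SNPs at 215127, 59544 and 1457974 and the zygote tract were named after their values were seen. Isolates, measures and lists were chosen with earlier results of these data known.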

Additional observations from a re-analysis of the deposited data

Results flagged for a closer look

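Among 18 measures checked over the 6 zygotes, 3 had a single zygote far from the rest; about 1 such flag in 20 arises by chance. On chromosome VIII, where HK12 A and B had a median s of 0.18 and 0.15, MD893-2 zygote 2 had -0.0326 and the other zygotes lay between -0.0131 and -0.0062. MD893-1 zygote 2 had 1 LOH tract and an LOH share of 0.0264%, where the other zygotes had 0 of both, from the chromosome V call described above. Those flags rest on the same call against values of 0, so the rate of 1 in 20 does not apply to them.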

How the results depend on the processing

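No paired analysis was possible because HK12 isolates carry letters and zygotes carry numbers. The difference in tract number was 8.33 and fell to 4.5 with a minimum of 10 SNPs; the difference in LOH share stayed within 1.5 times of 11.5 percentage points under every alternative run. S minus Y tracts averaged -0.5 in HK12 and -4 with a minimum of 3 SNPs. Of 17 tract calls, 9 were made under all 16 alternatives that kept their isolate, the long tracts of IV and XII among them; the others were lost with 10 SNPs or with 1 probe strand. SNPs called in d numbered 960, and 600 among SNPs with all probes measured (fewer SNPs tested); leaving out 1 isolate gave 942 to 1574, the highest without HK12 A. SNPs called in s numbered 3378, with 2179 on reverse probes, 1698 without SNPs homozygous in HK12 (added after seeing the data), and 1992 to 3558 leaving out 1 isolate, the lowest without HK12 B. Chromosome II (0.00162 in s, HK12 minus zygotes) turned to -0.0163 with means, -0.00227 and -0.00963 on forward and reverse probes and -0.0273 when centred on chromosome medians, and was -0.00497 to 0.00821 leaving out 1 isolate. Chromosome XIV (0.0218) turned to -0.00714 with that centring. The cause was not tested. X overlapped with that centring and XIII with centring on all SNPs. Every other chromosome kept its direction, and chromosome XII (-0.498) was -0.802 without HK12 A and -0.195 without HK12 B.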
